A study of Homo sapiens with 6 samples.

Results

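RAB GTPases are small proteins that mark the membranes of the cell and steer vesicle traffic. Their genes were taken from the gene count table as every row named RAB, a number and at most 1 letter, which gave 63 of 36601 rows. The libraries came from U2OS, a human osteosarcoma cell line, in which doxycycline induced TDP-43-mNLS-Clover, a fluorescently tagged form of the RNA-binding protein TDP-43; both groups carried this transgene and received doxycycline. The aggregates group (3 libraries) was transfected with 50 nM fibril seeds made from recombinant TDP-43 LCD, and cells with Clover aggregates were sorted by imaging after 48 hours. The diffuse group (3 libraries) received protein storage buffer in place of seeds, and cells with diffuse Clover signal were sorted. Each library came from its own transfection of 1 cell line, which the series design calls independent biological replicates, and whether the line is 1 clone was not stated in the sources used here. Seeding, aggregate formation and sort gate coincide with the groups and cannot be told apart.

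A RAB protein switches between an active, GTP-bound state and an inactive, GDP-bound state. Exchange factors load GTP, GTPase-activating proteins end the active state, and effectors such as tethers, motor adaptors and sorting proteins bind the active form. A geranylgeranyl transferase attaches lipid to cysteines near the end of the protein, an escort protein presents the RAB to this enzyme, and GDI proteins take inactive RABs off the membrane. Each compartment carries its own RABs: RAB1 and RAB2 between endoplasmic reticulum (ER) and Golgi, RAB5 on early endosomes, RAB4 and RAB11 on recycling endosomes, RAB7 on late endosomes and lysosomes, RAB3 and RAB27 on secretory vesicles.

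Gene counts per library totalled 40279084 to 46863013, so that 1 count was worth 0.0212 to 0.0251 CPM, the count scaled to a common library total with the TMM factors of edgeR. TARDBP, the gene of TDP-43, had 2581 ± 42.5 CPM in aggregates and 7440 ± 218 CPM in diffuse libraries (SD, n = 3 each), a count that could include reads of the transgene. The cell line was checked against 8 mesenchymal and U2OS markers: 7 were tested, their summed level was 3484 to 3788 CPM in aggregates and 5723 to 5951 CPM in diffuse libraries, and TWIST1 was at or near 0 in both groups. Of the 7, 3 rose (RUNX2, PRRX1 and ALPL) and 3 fell (median -0.05 on the log2 scale), and COL1A1 (1516 against 3211 CPM) made up much of the difference in the sum. Melanocyte markers (6 genes, TYR near 0) summed to 22.9 to 24.7 against 30.6 to 31.5 CPM. MITF (20.8 against 28.6 CPM) made up most of that sum, TYRP1 rose, and PMEL and MLANA were not called. Neuronal markers (6 genes) summed to 155 to 159 against 125 to 128 CPM, although 4 of them fell and 2, MAP2 and RBFOX3, rose (median -0.53). Epithelial markers (6 genes) summed to 325 to 328 against 698 to 760 CPM. KRT8 (163 against 360 CPM) and KRT18 (149 against 328 CPM) made up most of that sum. Of the 6, 4 fell, and EPCAM and CDH1 were not called. Whether the shifts in marker sums bear on the RAB values was not tested.

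Of the 63 RAB genes, 58 passed the filter on low counts and 5 did not: RAB19, RAB25, RAB33A, RAB3D and RAB44 had between 0 and 10 counts in any library. In aggregates, 13 RAB genes rose and 26 fell (edgeR's quasi-likelihood test, Benjamini-Hochberg adjusted p under 0.05 over 17839 genes), and 19 were not called. These 39 are 67.2% of the tested RAB genes, against 75.4% called among all genes, 37.8% risen and 37.6% fallen, so the share of called RAB genes was below that of all genes tested. The median log2 fold change was -0.07 over the RAB genes and 0.01 over all genes, and the median absolute change was 0.25 against 0.41. Without overlap between the groups were 13 RAB genes with higher and 25 with lower values in aggregates, against 76.2% of all genes in either direction. Of the 39 called RAB genes, 14 moved by less than 1.2-fold and 15 by at least 1.5-fold; the latter are 25.9% of the tested RAB genes, against 34.4% of all genes tested. A rise of at least 2-fold was seen in 1 RAB gene and a fall in 7, against 6.68% and 8.11% of all genes. The summed level of all RAB genes was 3281 ± 26.0 CPM in aggregates and 3474 ± 71.6 CPM in diffuse libraries. In 16 tested RAB genes over 10% of exonic bases were also exon of another gene. Among them were RAB13 (24.8%, AL358472.6) and RAB5C (28.8%, AC099811.2), both on the same strand, and RAB1A (22.9%, CEP68, on the other strand). How such reads were counted was not given in the sources used here, so small changes of these genes are uncertain.

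In bulk samples, fewer cells of a type and less RNA per cell cannot be told apart. The plot of all members by compartment groups the calls by the membrane that each RAB serves. The compartment lists were drawn up with earlier results of these data known. Their shares beside those of all genes are therefore a description only.

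**Figure D1:**
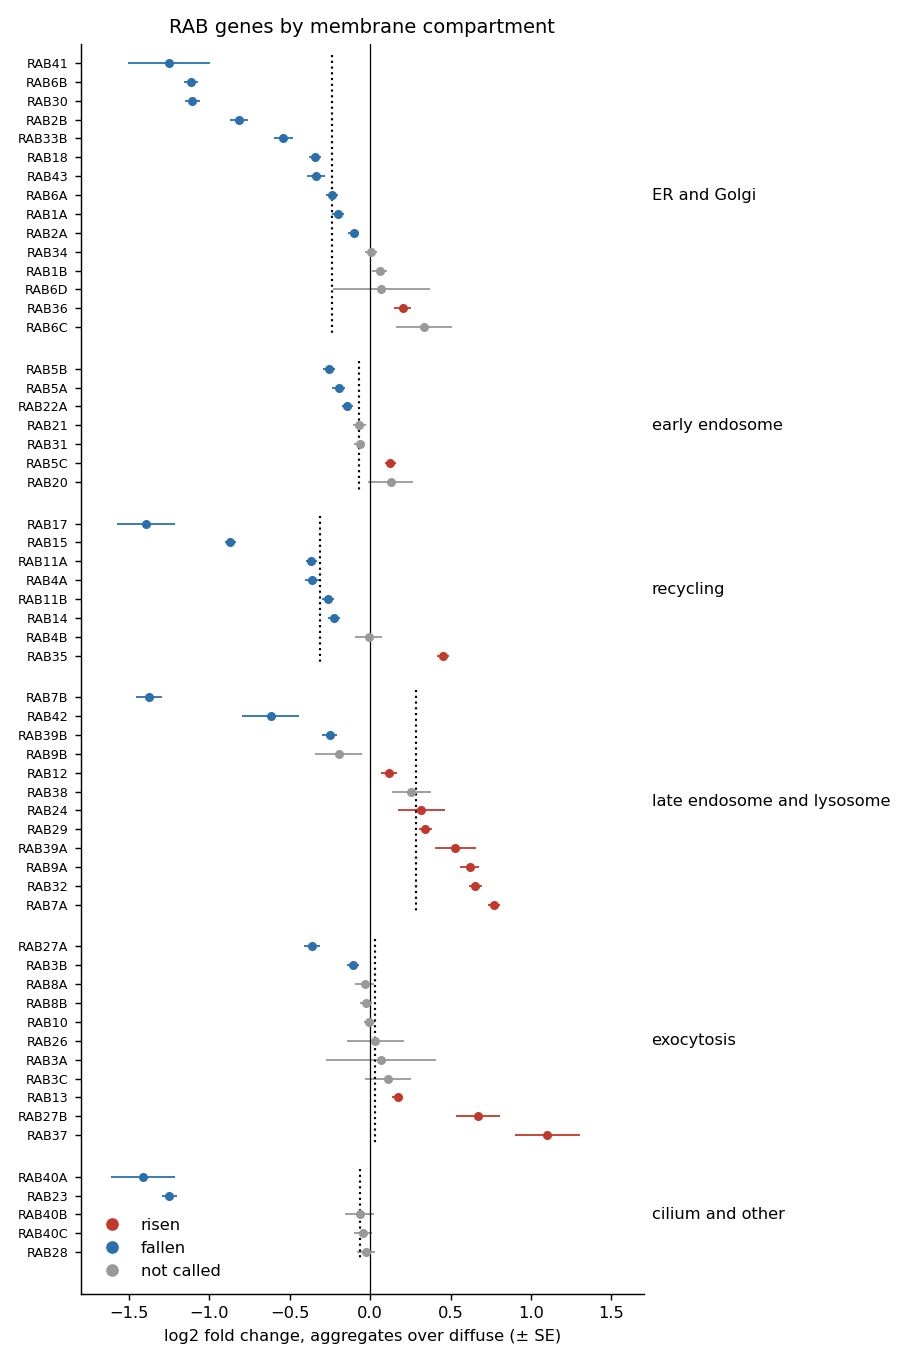
Log2 fold change of each tested RAB gene, aggregates over diffuse, with its SE (x axis), grouped by compartment; colours give the call, the dotted line the median of the group. Of the 12 late endosomal and lysosomal genes 7 rose, and of the 15 ER and Golgi genes 10 fell, against 37.8% risen and 37.6% fallen over all genes.

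In the main fit, late endosomal and lysosomal RAB genes held 7 of the 13 rises. Of 12 genes, all tested, 7 rose and 3 fell and the median change was 0.29 on the log2 scale, against 37.8% risen and 37.6% fallen over all genes. With an offset for the GC content and length of each gene the median was 0.05, with 5 risen and 3 fallen. The list held 5 of 12 rises with this offset, 5 of 11 with DESeq2 and 8 of 16 with upper-quartile scaling. Against a fold of 1.2 it held 5 of 8. The summed level of the 12 genes was 609, 606 and 608 CPM in aggregates libraries 1, 2 and 3 and 430, 402 and 418 CPM in diffuse libraries 1, 2 and 3. These sums did not overlap, and without RAB7A they were still 255 ± 3.35 against 210 ± 6.74 CPM.

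RAB7A (ENSG00000075785.12, chr3:128726122-128814796, plus strand, GRCh38), which drives the fusion of late endosomes and autophagosomes with lysosomes, had the highest level per kilobase of exon of all RAB genes in aggregates. Its levels were 354, 348 and 357 CPM in aggregates and 215, 199.9 and 205 CPM in diffuse libraries. All 3 aggregates libraries lay far above all diffuse libraries. The log2 fold change was 0.77 ± 0.04 (SE; edgeR adjusted p = 5.71e-36). In diffuse libraries RAB1A held that place and RAB7A came next.

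RAB32 (ENSG00000118508.4, chr6:146543693-146554965, plus strand) serves lysosome-related organelles and mitochondria. It was at 82.4, 81.1 and 79.3 CPM in aggregates and 53.5, 49.8 and 51.1 CPM in diffuse libraries. The groups were well apart, with a log2 fold change of 0.65 ± 0.04 (edgeR adjusted p = 5.05e-28), which was 0.36 with the GC and length offset. Its paralog RAB38 was not called at 0.26.

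RAB9A, which returns mannose 6-phosphate receptors from late endosomes to the Golgi, rose from 12.1 ± 0.19 to 18.6 ± 0.70 CPM, a log2 fold change of 0.62. RAB29, which can recruit the kinase LRRK2 to lysosomes, rose from 66.9 ± 2.45 to 84.8 ± 2.01 CPM (log2 fold change 0.34). RAB39A rose by 0.53 at a low level, from 2.01 ± 0.12 to 2.90 ± 0.33 CPM. For each of these 3 genes, the lowest aggregates library lay above the highest diffuse library.

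RAB12 and RAB24 passed the threshold narrowly. RAB12, which takes part in the turnover of the transferrin receptor, had a log2 fold change of 0.12 (edgeR adjusted p = 0.027); it lost the call when aggregates library 2 (0.09), diffuse library 1 (0.11) or diffuse library 2 (0.08) was left out, and was -0.01 with the GC and length offset. RAB24, linked to autophagy, had 2.02, 2.23 and 1.64 CPM in aggregates and 1.43, 1.64 and 1.66 CPM in diffuse libraries, which overlap; its change of 0.32 (edgeR adjusted p = 0.0441) was lost without any 1 library other than aggregates replicate 3 (adjusted p between 0.0535 and 0.246). A share of 44.8% of its exonic bases is also exon of MXD3 on the same strand, and MXD3 fell by 1.16 on the log2 scale, so the split of reads between these genes is uncertain.

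RAB7B (ENSG00000276600.4, chr1:205976740-206003461, minus strand), which acts between endosomes and the trans-Golgi, went the other way from RAB7A. It had 4.52, 4.12 and 4.05 CPM in aggregates and 11.4, 10.1 and 11.4 CPM in diffuse libraries. The groups were widely separated, with a log2 fold change of -1.37 ± 0.08 (edgeR adjusted p = 5.18e-29). RAB39B, known for its role in neurons, fell by 0.25 on the log2 scale. RAB42 fell by 0.62 although aggregates library 3 (1.98 CPM) lay within the diffuse range of 1.95 to 2.24 CPM; without that library its change was -0.99. RAB9B was not called at -0.20.

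**Figure D2:**
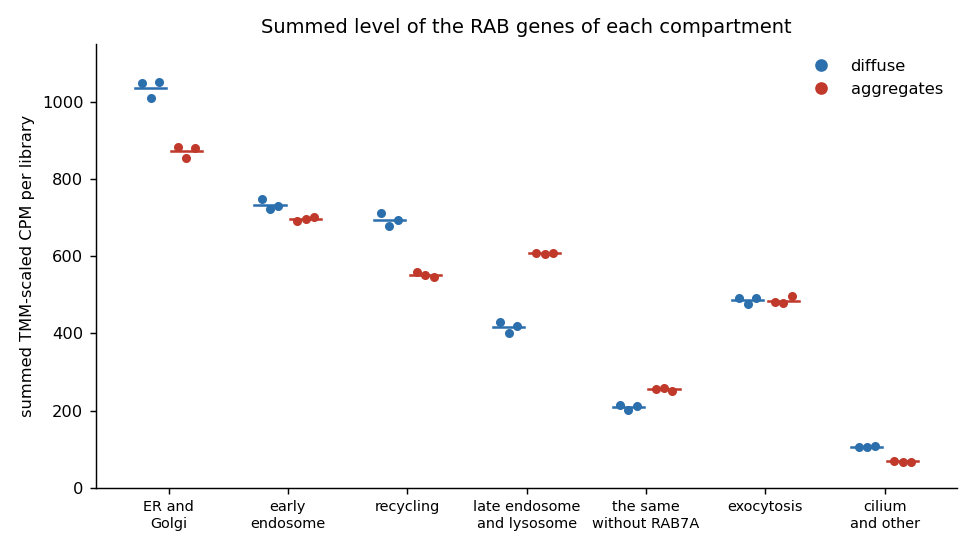
Summed TMM-scaled CPM of the RAB genes of each compartment (y axis) in every library (points) with the group mean (line). Late endosomal and lysosomal genes summed to 606 to 609 CPM in aggregates and 402 to 430 CPM in diffuse libraries; recycling genes summed to 546 to 559 and 679 to 711 CPM.

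Among the RAB genes of the ER and Golgi, 1 rose and 10 of the 15 tested fell (66.7%, against 37.6% of all genes). The median was -0.24. Their summed level was 872 ± 15.9 CPM in aggregates and 1037 ± 23.6 CPM in diffuse libraries, without overlap. RAB1A (ENSG00000138069.17, chr2:65070696-65130331, minus strand), which tethers vesicles from the ER to the Golgi, had 240.3, 228 and 242 CPM in aggregates and 277, 263 and 276 CPM in diffuse libraries. All aggregates libraries were lower, by 0.20 ± 0.04 on the log2 scale (edgeR adjusted p = 4.46e-07). Its paralog RAB1B was not called at 0.06; with upper-quartile scaling it was called risen (0.11) and with the GC and length offset called fallen (-0.15, edgeR adjusted p = 0.00073).

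RAB6B (ENSG00000154917.10, chr3:133824239-133895836, minus strand), a Golgi RAB best known from neurons, had 24.7, 24.2 and 23.9 CPM in aggregates and 51.6, 52.6 and 53.5 CPM in diffuse libraries. It fell in all 3 libraries to under the lowest diffuse value, with a log2 fold change of -1.11 ± 0.04 (edgeR adjusted p = 1.2e-40). RAB30 (ENSG00000137502.9, chr11:82973133-83071923, minus strand), a Golgi RAB, had 24.0, 24.0 and 24.5 CPM in aggregates and 51.3, 52.9 and 51.8 CPM in diffuse libraries. The separation was as wide as for RAB6B, with a log2 fold change of -1.11 ± 0.04 (edgeR adjusted p = 2.28e-40).

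RAB41, a RAB of the Golgi, fell by 1.25 at 0.34 ± 0.04 against 0.82 ± 0.03 CPM. RAB2B, which like RAB2A acts between ER and Golgi, fell by 0.82 on the log2 scale, and RAB33B, which binds the autophagy protein ATG16L1, by 0.54. RAB18, found at the ER and on lipid droplets, fell by 0.34, RAB43 by 0.34 and RAB6A, the main RAB6 of retrograde Golgi transport, by 0.24; with the GC and length offset RAB18 was at -0.21 and RAB6A at -0.14, both still called. RAB2A fell by 0.10, was not called without aggregates replicate 2 (-0.08) and had the opposite sign with the GC and length offset (0.02). RAB36 was the member that rose, by 0.20. RAB34, RAB6C and RAB6D were not called, and RAB6C and RAB6D are near-identical to RAB6A in sequence, so their counts are uncertain; so are those of RAB43, which shares 79.3% of its exonic bases with the read-through gene ISY1-RAB43.

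Recycling endosomal RAB genes mostly fell: 6 of 8 tested fell (75%, against 37.6% of all genes) and 1 rose. Their median was -0.31 and their summed level 552 ± 6.33 against 695 ± 16.4 CPM. RAB17 (ENSG00000124839.12, chr2:237574322-237601614, minus strand), known from polarised epithelia, had 0.72, 0.57 and 0.84 CPM in aggregates and 1.63, 1.93 and 2.02 CPM in diffuse libraries. These low levels did not overlap, and the log2 fold change was -1.39 ± 0.18 (edgeR adjusted p = 4.7e-11). As given above, summed epithelial markers were also lower in aggregates, mostly through KRT8 and KRT18, while EPCAM and CDH1 were not called. The part of these markers in the RAB17 value was not tested. RAB15 carried the largest loss of the list by level, from 185 ± 4.61 to 101 ± 1.97 CPM (log2 fold change -0.87). RAB11A, the main RAB of the recycling endosome, fell from 217 ± 6.23 to 169 ± 4.49 CPM, or by 0.37 on the log2 scale, which was -0.24 with the GC and length offset.

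RAB4A, of the fast recycling route, fell by 0.36, RAB11B by 0.26 and RAB14, which works between endosomes and the Golgi, by 0.23 (-0.14 with the GC and length offset). RAB4B was not called. RAB35, which directs fast recycling at the plasma membrane, rose from 70.2 ± 1.60 to 96.0 ± 1.35 CPM (log2 fold change 0.45). The antisense gene AC004812.2 covers 14.8% of its exonic bases and rose by 1.22, from 2.48 to 5.80 CPM.

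Early endosomal RAB genes moved little. Of 7 genes 3 fell (42.9%, against 37.6% of all genes) and 1 rose, with a median of -0.07. RAB5B fell by 0.26 (-0.16 with the offset) and RAB5A, which organises the fusion of early endosomes, by 0.20. RAB22A, a relative of RAB31, fell by 0.14, with the opposite sign under the GC and length offset (0.04). RAB5C (ENSG00000108774.14, chr17:42124976-42155044, minus strand) was the most abundant RAB5 gene per kilobase. It had 179.8, 190.1 and 178 CPM in aggregates and 176, 164 and 163 CPM in diffuse libraries. The groups lay just apart, with a log2 fold change of 0.13 ± 0.04 (edgeR adjusted p = 0.00128), which was -0.02 and not called with the GC and length offset. RAB20, RAB21 and RAB31 were not called, though RAB21 was with the offset (0.15).

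Of 11 tested RAB genes of exocytosis, 3 rose and 2 fell (45.5% called, against 75.4% of all genes). The other 6 were not called, and the median was 0.03. RAB10 (ENSG00000084733.10, chr2:26034107-26137454, plus strand), which delivers vesicles to the plasma membrane, had 142, 141 and 151 CPM in aggregates and 149, 142 and 145 CPM in diffuse libraries. The ranges overlapped throughout (edgeR adjusted p = 0.914). RAB13 (ENSG00000143545.8, chr1:153981617-153986358, minus strand), which acts at cell junctions, had 113, 111 and 118 CPM in aggregates and 101, 100.2 and 101 CPM in diffuse libraries. It was higher in each aggregates library, by 0.17 ± 0.04 (edgeR adjusted p = 1.9e-05), a call lost with the GC and length offset (0.06).

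The secretory paralogs RAB27A and RAB27B moved apart. RAB27A, which docks secretory lysosomes at the plasma membrane, fell by 0.36 (-0.24 with the offset), and RAB27B rose by 0.67, from 1.59 ± 0.23 to 2.54 ± 0.21 CPM. RAB37, of secretory granules, was the RAB gene that rose at least 2-fold, by 1.10 ± 0.20, from 0.61 ± 0.15 to 1.33 ± 0.05 CPM. RAB3B, a vesicle RAB, fell by 0.11, with the opposite sign under the GC and length offset (0.06). RAB3A, RAB3C, RAB8A, RAB8B and RAB26 were not called; with the offset RAB3C (0.30) and RAB8B (0.09) were.

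In the last list, of cilium and other RABs, 2 of 5 tested genes fell (40%, against 37.6% of all genes). RAB23 (ENSG00000112210.11, chr6:57186992-57222314, minus strand), a regulator of Hedgehog signalling at the cilium, had 26.7, 25.3 and 26.5 CPM in aggregates and 60.8, 62.1 and 63.6 CPM in diffuse libraries. Its log2 fold change was -1.25 ± 0.04 (edgeR adjusted p = 3.19e-45), with no overlap. BAG2, an antisense neighbour, covers 57.7% of the exonic bases of RAB23 and rose from 54.0 ± 1.09 to 105 ± 1.93 CPM; the strand setting of the counting was not given in the sources used here, so the RAB23 value may hold reads of BAG2. RAB40A (ENSG00000172476.4, chrX:103499130-103519489, minus strand), a RAB joined to a ubiquitin ligase module, had 0.67, 0.57 and 0.43 CPM in aggregates and 1.43, 1.45 and 1.62 CPM in diffuse libraries. The groups did not overlap (log2 fold change -1.41 ± 0.20, edgeR adjusted p = 7.47e-10), but the near-identical RAB40AL makes its counts uncertain. RAB28, RAB40B and RAB40C were not called; with the offset RAB28 was (-0.16).

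**Figure D3:**
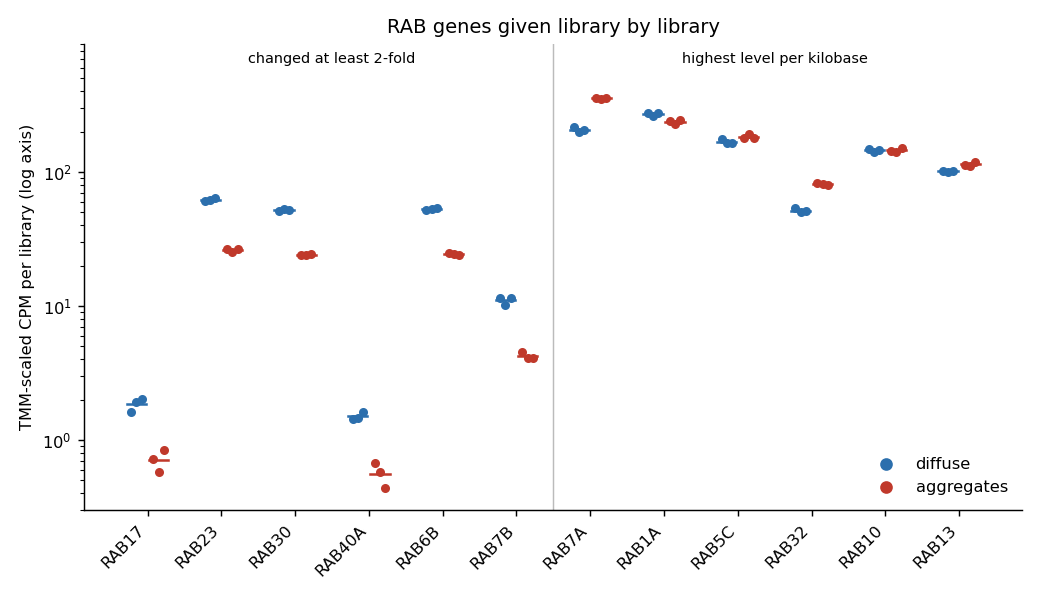
TMM-scaled CPM (log axis) in each library (points) with group means (lines) for the 6 RAB genes that changed at least 2-fold and averaged 1 CPM or more, and the 6 of highest level per kilobase. The 6 changed genes all had lower values in aggregates; RAB10 overlapped between groups.

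Paralogs of the same subfamily were then compared as shares of the counts per kilobase of exon of the subfamily. Among 15 subfamilies, 23 shares were tested and 17, in 12 subfamilies, did not overlap between the groups. By level, a different measure, 76.2% of all genes tested did not overlap either. With 3 libraries a group the two-sided exact permutation test cannot go below p = 0.1, which these 17 reached, with an adjusted p of 0.135 over the 23 shares. RAB6B made up 16.5%, 16.5% and 15.6% of RAB6 in aggregates and 25.8%, 26.9% and 26.3% in diffuse libraries, while RAB6A rose in share from 72.6% ± 0.74 to 82.0% ± 0.72 (SD, n = 3; exact p = 0.1). RAB2B went from 22.8% ± 0.74 of RAB2 to 15.2% ± 0.33.

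In the RAB5 subfamily RAB5C held 61.5% ± 0.57 in diffuse and 67.1% ± 0.94 in aggregates libraries. RAB7B held 3.77% ± 0.18 of RAB7 in diffuse and 0.88% ± 0.05 in aggregates libraries. RAB39A went from 10.6% ± 0.83 to 16.9% ± 2.03 of RAB39, a change of 6.32 points that was 3.79 points with raw counts. RAB27B went from 3.96% ± 0.53 to 7.79% ± 0.84 of RAB27 and RAB40A from 6.87% ± 0.23 to 2.76% ± 0.52 of RAB40. By contrast RAB8A held 18.5% ± 0.38 and 18.4% ± 1.28 of RAB8, which overlapped.

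**Figure D4:**
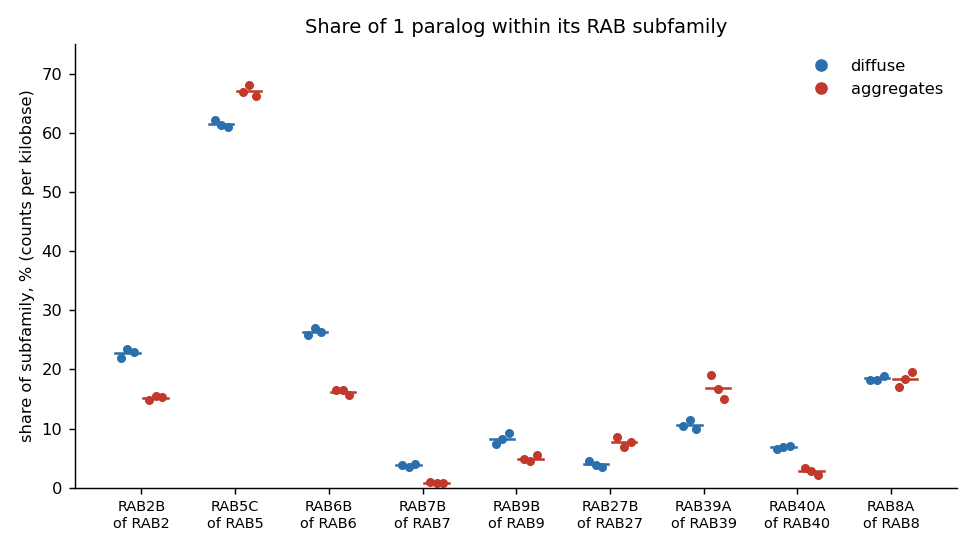
Share of 1 paralog in the counts per kilobase of its RAB subfamily, in percent (y axis), in every library (points) with the group mean (line). RAB6B lay at 15.6% to 16.5% in aggregates and 25.8% to 26.9% in diffuse libraries; RAB8A overlapped.

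The genes that act on RAB proteins were counted from lists of 145 genes, of which 141 were tested. In aggregates 51 rose and 65 fell, with a median of -0.06, or 36.2% risen and 46.1% fallen, against 37.8% and 37.6% of all genes tested. Of the 8 genes of prenylation and the membrane cycle, 4 rose and 2 fell. RABGGTB, the catalytic subunit of the geranylgeranyl transferase, rose from 50.1 ± 4.75 to 108 ± 4.83 CPM (log2 fold change 1.11 ± 0.05, edgeR adjusted p = 7.3e-19), and its partner subunit RABGGTA rose by 0.34. RABAC1, a receptor for prenylated RABs, rose by 0.43, while the escort protein gene CHM fell by 0.25 and RABIF, a chaperone of nucleotide-free RABs, by 0.38.

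Of 51 tested exchange factor genes 20 rose and 25 fell (88.2% called, against 75.4% of all genes). RAB3IL1, an exchange factor for RAB3 and RAB8, rose from 15.7 ± 1.13 to 41.6 ± 1.59 CPM, a log2 fold change of 1.41. DENND4B rose by 0.67 and HPS1, part of the exchange factor of RAB32 and RAB38, by 0.65. HPS4, in the same list, fell by 0.38, from 255 ± 1.57 to 196 ± 2.96 CPM. The largest falls by the rule were those of DENND1B, an exchange factor for RAB35 (log2 fold change -1.48), DENND3, for RAB12 (-1.18), and RABGEF1, for RAB5 (from 124 ± 2.58 to 61.9 ± 1.53 CPM).

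Of 36 genes of GTPase-activating proteins, 11 rose and 16 fell (75% called, against 75.4% of all genes). TBC1D2, a GTPase-activating protein that ends the active state of RAB7, rose from 9.89 ± 0.31 to 32.9 ± 1.21 CPM. Its log2 fold change was 1.73 ± 0.06 (edgeR adjusted p = 8.71e-48). TBC1D30 rose by 0.99 and EVI5L by 0.73. RABGAP1L fell by 0.81, TBC1D9 by 0.68 and TBC1D22B by 0.65 on the log2 scale.

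Among 46 tested effector genes 16 rose and 22 fell (82.6% called, against 75.4% of all genes), with a median of -0.16. FYCO1, which links RAB7 vesicles to kinesin, rose from 39.4 ± 1.05 to 84.5 ± 3.41 CPM (log2 fold change 1.10), and PLEKHM1, which binds RAB7 and the fusion machinery of lysosomes, rose from 46.9 ± 0.58 to 95.0 ± 5.54 CPM (1.02). SYTL2, an effector of RAB27, rose by 1.01, while SYTL5, of the same family, fell by 2.08, from 9.33 ± 0.45 to 2.22 ± 0.20 CPM. RAB11FIP1, an effector of RAB11, fell from 118 ± 1.14 to 55.7 ± 2.23 CPM and BICD2, the dynein adaptor of RAB6, from 158 ± 3.79 to 75.4 ± 1.68 CPM.

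Promoters of 50 of the 63 RAB genes (RefSeq, GRCh38.p14, 250 bases before to 50 after the start) were searched on both strands for 2 motifs. These were the E-box CACGTG, which MITF and TFE factors can bind, and the antioxidant response element core TGACNNNGC; the 2 can overlap by a few bases. The E-box was found in 6 of the 50 RAB promoters (12%), against 9.74% of promoters of all genes tested and 7.43% of all promoters of the table. The antioxidant core was found in 9 of 50 (18%), against 1845 of 12263 promoters of genes tested and 13.6% of all promoters, so both shares were near those of other genes. By call, the E-box was in 2 of 10 risen, 2 of 21 fallen and 2 of 16 not called RAB genes with a promoter. The antioxidant core was in 3 of 10, 3 of 21 and 3 of 16. Among fallen genes, RAB4A and RAB5A held the E-box, and RAB22A, RAB5A and RAB5B the core. Of 9 late endosomal and lysosomal genes with a promoter, 2 held each motif. Windows of 30 bases are shown for 3 of the risen genes of that list, with the motif in capitals; a match is a description, not a binding site. The RAB29 window lies at chr1:205775446-205775475 (minus strand), that of RAB24 at chr5:177303732-177303761 (minus strand) and that of RAB32, with the core on the opposite strand, at chr6:146543725-146543754 (plus strand).
RAB29 E-box: caggcaaccctgCACGTGacgcttgcggag
RAB24 E-box: cggcgcccgcgcCACGTGaccttgcggccc
RAB32 antioxidant core: gaccggtcagGCGGCGTCAgcgggcgcggc

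Splicing of the RAB genes was measured as the use of introns that share splice sites, grouped in clusters by LeafCutter. In 44 RAB genes 90 clusters were tested and 5 changed (edgeR diffSpliceDGE, Simes adjusted p under 0.05), near the 5.02% of all 35898 clusters. They lay in RAB34, RAB1A, RAB4A, RAB5A and RAB5C. A test on simulated data missed part of the clusters in which the most used intron shifted, so a cluster without a call cannot be read as unchanged. Of 90 clusters, 12 held an intron whose use differed by at least 5 points, and 2 of these were called.

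RAB34 was counted in the ER and Golgi list, although it acts in ciliogenesis and lysosome positioning. In this gene 2 annotated introns lie on the minus strand of chromosome 17 (GRCh38). They share an acceptor and differ in the donor by 24 bases, all coding. The longer intron, chr17:28715123-28715218, took 16.1%, 14.8% and 15.6% of the cluster in aggregates and 27.8%, 26.2% and 27.8% in diffuse libraries. All aggregates libraries were lower by over 10 points, and the shorter intron rose from 72.7% ± 0.91 to 84.5% ± 0.68 (cluster edgeR adjusted p = 8.38e-07; 3169 and 3045 spliced counts in all). The gene was not called by level, at 118 ± 4.19 against 118 ± 4.40 CPM, though it was with the GC and length offset (log2 fold change -0.07). The exon before the intron, in its longer form chr17:28715195-28715276, carries the 24 bases in capitals, which start with the donor of the shorter form.
RAB34 exon: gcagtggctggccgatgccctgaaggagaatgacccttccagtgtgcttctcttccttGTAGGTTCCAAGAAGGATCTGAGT

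In RAB1A the annotated intron chr2:65088691-65097970, which joins past 2 coding exons of 132 and 96 bases, was rare in both groups. It took 0.15%, 0.08% and 0.06% in aggregates and 0.56%, 0.66% and 0.67% in diffuse libraries (28 of 28578 and 192 of 30437 counts). The groups did not overlap (cluster edgeR adjusted p = 6.09e-12).

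RAB4A had an unannotated intron, chr1:229299073-229303805, that skips the exon chr1:229302862-229302989 of 128 bases. It took 0.13%, 0.12% and 0% in aggregates and 1.37%, 1.55% and 1.27% in diffuse libraries, that is 2 of 2302 and 36 of 2578 counts. The skipping was thus rare in diffuse libraries and rarer in aggregates (cluster edgeR adjusted p = 0.00288). The skipped exon holds the last 113 coding bases of RAB4A, chr1:229302862-229302974, shown with the last 3 codons before the stop in capitals, near which RAB proteins receive their lipid.
RAB4A exon: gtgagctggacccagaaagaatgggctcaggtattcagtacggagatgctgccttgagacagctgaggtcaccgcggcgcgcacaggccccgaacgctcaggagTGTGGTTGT

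In RAB5A an exon of 170 bases, chr3:19970548-19970717, annotated in the transcript RAB5A-205, which GENCODE marks as a target of nonsense-mediated decay, was used less. Its upstream intron took 0.46%, 0.81% and 1.57% in aggregates and 3.62%, 2.97% and 6.22% in diffuse libraries, without overlap. Its downstream intron went from 3.72% ± 0.55 to 0.67% ± 0.30 (cluster edgeR adjusted p = 0.011). The call was lost without aggregates replicate 1 (adjusted p = 0.0956).

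The call in RAB5C depended on single libraries. An unannotated intron, chr17:42130591-42141936, had 0 of 4343 counts in aggregates, which allows a share of up to 0.0691%, and 22 of 3578 in diffuse libraries, where it took 0.79%, 0.85% and 0.18% (cluster edgeR adjusted p = 0.0273). The call was lost in 5 of the 6 fits without 1 library (adjusted p between 0.0799 and 0.23; kept only without diffuse replicate 3) and with a minimum of 30 counts per intron (0.637).

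Large shifts without a call were seen in clusters placed in RAB39A and RAB28. In the first, the intron chr11:107912630-107916540 went from 41.9% ± 2.22 in diffuse to 60.0% ± 3.61 in aggregates libraries. The adjusted p was 0.464 by the Simes method and 0.193 by the F test per cluster in edgeR. This intron lies before the annotated start of RAB39A, chr11:107928503, so its place in that gene is uncertain. In RAB28, a RAB of the cilium, the intron chr4:13368651-13376544 took 58.3%, 53.3% and 56.5% in aggregates and 73.1%, 72.6% and 74.6% in diffuse libraries, over 138 to 214 counts per library. The groups did not overlap, but the adjusted p was 0.296 by the Simes method and 0.0338 by the F test per cluster in edgeR. Counts of reads carry no molecular identifiers, so limits from a count of 0 cover counting error only.

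**Figure D5:**
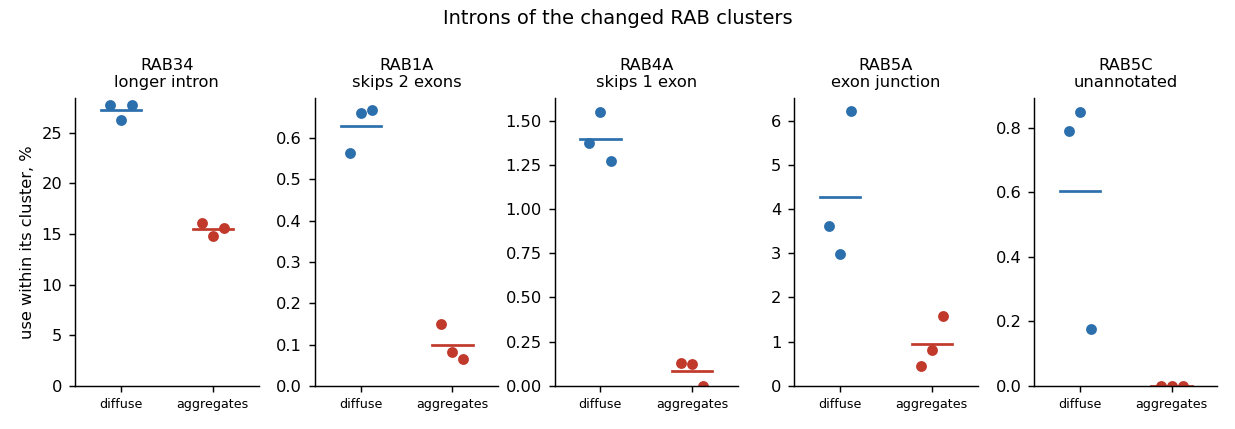
Use of 1 intron of each changed RAB cluster, in percent of the counts of its cluster (y axis, its own scale in each panel and starting at 0), by library (points) and group mean (line); for RAB5A the intron before the 170-base exon. Each of the 5 introns was used less in aggregates, and in RAB34 its use stayed between 14.8% and 16.1%.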

How the data were processed

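PolyA RNA was sequenced with a stranded kit in 6 libraries, 3 per group, per the labels' protocols. The deposited values are whole-number counts per gene and per LeafCutter intron, not normalized; fastp 0.23.2, STAR 2.7.11a and hg38 are named in the submitters' processing notes. For the gene counter, its annotation and its strand setting the sources used here give nothing. The gene test was the robust quasi-likelihood F test of edgeR 4.0.16 (R 4.3.3) after filterByExpr and TMM. Introns of 10 or more counts over all libraries, in clusters of 10 or more in each, were tested with diffSpliceDGE. Positions, lengths and compared exons come from GENCODE 29. Members, compartment lists and tests were chosen with earlier results of these data known. Every member is accounted for. Values in every library are given for the 6 highest per kilobase and for members changed at least 2-fold averaging 1 CPM or more. Up to 3 pathway genes per direction and list averaging 5 CPM or more are named. RAB28, HPS4, the RAB39A cluster and the members beyond these rules were chosen after their values were seen. On simulated data with 200 changed intron clusters, 131 were recovered when the most used intron of a cluster fell 4-fold (3 false calls). After that was seen, an easier case was added, in which the second most used intron of a larger cluster fell; it recovered 200 of 200 (4 false calls). Alternatives were RLE and upper-quartile scaling, DESeq2 1.42.0, no filter, glmTreat, a GC and length offset, a replicate block and leaving out each library. The values of 1 marker list are not reported here.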

Additional observations from a re-analysis of the deposited data

How the results depend on the processing

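Of 754 values of single RAB genes under the alternatives, 670 kept both sign and call, 37 lost the call, 17 gained one and 39 had the other sign (9 of these also lost or gained the call). Of these 39, 30 were called in neither fit and 9 in at least 1 of both, all 9 with the GC and length offset: RAB12 -0.013, RAB1B -0.15, RAB21 0.15, RAB22A 0.043, RAB2A 0.023, RAB34 -0.067, RAB3B 0.062, RAB5C -0.018 and RAB8B 0.086 on the log2 scale, of which RAB1B, RAB21, RAB34 and RAB8B became calls. Against a fold of 1.2 (glmTreat), 8 RAB genes rose and 15 fell, and 25 and 42 of the genes acting on RAB proteins. At that fold 51.6% of all genes tested were called. The F test per cluster called 8 RAB clusters. With raw counts in place of counts per kilobase the change in subfamily share, aggregates minus diffuse in points, was RAB2A 5.53, RAB5B -4.49, RAB6A 10.8, RAB6B -11.3, RAB6C 0.46, RAB7A 3.86, RAB9A 5.41, RAB27A -4.90 and RAB39A 3.79. Leaving out 1 library gave 12 to 14 risen and 25 to 27 fallen RAB genes, 46 to 51 and 63 to 68 genes acting on RAB proteins, and 3 to 5 changed clusters. Over all genes, 47.1% were called without a filter and 52.2% with DESeq2. After the group mean of each gene was taken off, deviations of libraries of the same number correlated by 0.04, 0.08 and 0.05 between groups. Each library correlated best with its own number. Whether such libraries share more than that number is not stated in the labels. With the replicate block 14 RAB genes rose and 26 fell, RAB38 being added. The causes of these differences were not tested. Depth limits RAB genes under 1 CPM.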
